A study of Mus musculus with 6 samples.

Results

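RIT1 and 8 related small GTPases of the RAS family were followed at the mRNA level in mouse heart cells with and without the RIT1 M90I variant switched on. The 9 genes (Rit1, Hras, Nras, Rras, Rras2, Mras, Rap1a, Rap1b and Rheb) were taken by symbol, through the GENCODE M21 annotation, from the 54532 Ensembl genes listed in the expression table, and all 9 were expressed highly enough to be tested. Primary cardiomyocytes were prepared from the hearts of neonates 1 to 3 days old whose Rit1 locus was engineered so that Cre recombinase turns on the M90I variant. On day 3 after isolation they were infected with an adenovirus for GFP (AdGFP, genotype Rit1 +/+ per the labels, 3 samples) or for GFP-Cre (AdCre, Rit1 M90I/+, 3 samples). RNA was sequenced 6 days after infection.

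Both groups thus share the culture, the day of infection, adenovirus particles and GFP, and they differ in Cre and in the variant together. Wild-type cells given Cre were not analysed here, so effects of the recombinase and of M90I cannot be told apart. The cultures are a mixture of cells enriched for myocytes by letting other cells attach first, and each well held about the cells of a single heart. The expression unit is FPKM (fragments per kilobase of exons, relative to library depth as scaled by the authors), which adds up reads from the M90I and the wild-type allele.

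RAS-family GTPases are molecular switches: exchange factors load them with GTP, GTPase-activating proteins return them to the GDP-bound state, and in the GTP form they bind effectors such as the RAF kinases, PI3-kinase and RalGDS proteins. Most are anchored to membranes by a prenyl group added to a cysteine near the C terminus, which RIT1 lacks. RIT1 is kept low by the adaptor LZTR1 and the ubiquitin ligase subunit CUL3, and gain-of-function RIT1 variants such as M90I cause Noonan syndrome, in which thickening of the heart muscle is common.

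To show what the variant touches and which relatives carry the same codon, the coding sequence around Rit1 codon 90 is given with the matching codons of a classical RAS (Hras), the gene with the largest difference between groups here (Rras), a RAP protein (Rap1a) and the most distant relative (Rheb). Each line has 30 bases of the principal transcript in GENCODE M21 (GRCm38), 5′ to 3′ on the coding strand, with the codon that aligns to Rit1 codon 90 in capitals.
Rit1: gccatgcgggatcagtatATGagggcagga
Hras: gccatgcgggaccagtacATGcgcacaggg
Rras: gccatgcgggagcagtacATGcgtgctggc
Rap1a: gcaatgagggatttgtatATGaagaatggc
Rheb: atttttcctcagacatacTCCatagatatt
The ATG codon was present in 8 of the 9 genes, and Rheb, with TCC, was the exception. The windows lie at chr3:88726292-88726321 (Rit1, plus strand), chr7:141192507-141192536 (Hras, minus strand), chr7:45020335-45020364 (Rras, plus strand), chr3:105739613-105739642 (Rap1a, minus strand) and chr5:24808394-24808423 (Rheb, minus strand), each within a coding exon. Over the codons that align with Rit1, between 53.0% (Rras) and 57.0% (Rap1a) of bases were identical to Rit1 in the 7 relatives other than Rheb, and 44.7% in Rheb.

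The ends of the coding sequences show the feature that sets RIT1 apart. Each line holds the last 5 codons and the stop codon, with the codon 4th from the end in capitals, where a prenylated GTPase has a cysteine codon (TGT or TGC).
Rit1: aaaGACtcggtcacctga
Hras: aaaTGTgtgctgtcctga
Rras: cccTGTgtcctgctgtag
Rheb: tcgTGCtcggtgatgtga
A cysteine codon stood there in 8 of the 9 genes and not in Rit1. These ends lie at chr3:88729325-88729342, chr7:141191348-141191365, chr7:45021347-45021364 and chr5:24803664-24803681 (GRCm38) in the order printed. Without the stop codon the coding sequences run from 184 codons (Rap1a, Rap1b and Rheb) to 219 codons (Rit1).

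The FPKM values correspond to 25.3 to 26.5 M reads (M, megareads) in each AdGFP sample and 26.0 to 32.4 M reads in each AdCre sample. The 9 genes had from 409 reads (Mras in AdGFP 1) to 5253 reads (Rap1b in AdCre 1) in a sample. The labelled cell type was checked against markers. The 10 cardiomyocyte markers (such as Myh6, Tnnt2 and Actn2) summed to between 4837 and 8033 FPKM in AdGFP and between 3066 and 5189 FPKM in AdCre, and none was at 0. Fibroblast markers were also high, at 2589 to 4644 FPKM in AdGFP and 2272 to 3324 FPKM in AdCre over 8 genes, so the cultures held both cell types. Sums of 8 endothelial markers were 90.7 to 139 FPKM in AdGFP and 134 to 197 FPKM in AdCre, those of 8 smooth muscle and pericyte markers 198 to 222 and 193 to 222 FPKM, those of 8 macrophage markers 18.2 to 81.9 and 34.4 to 105 FPKM, and those of 8 mesothelial markers 148 to 296 and 132 to 185 FPKM. Erythroid markers summed to at most 2.27 FPKM in any sample, with 1 of 5 at 0 throughout.

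Rit1 (ENSMUSG00000028057, chromosome 3, 88716838 to 88731049, GRCm38) encodes the GTPase that carries the variant. Its level was 7.66, 8.99 and 9.01 FPKM in AdGFP 1 to 3 and 8.90, 9.10 and 9.58 FPKM in AdCre 1 to 3. The groups overlapped, and AdGFP 1 was the low sample. The AdCre samples averaged 9.19 ± 0.351 FPKM against 8.55 ± 0.774 FPKM in AdGFP (mean ± SD, n = 3 each). This gave a log2 fold change of 0.11 and a 95% interval from -0.17 to 0.39 (limma adjusted p 0.84, and 0.497 with the replicate number as a block). Without AdGFP replicate 1 the log2 fold change was 0.030, and after rescaling to TPM it was 0.197. AdCre was higher in all 3 same-numbered pairs, by 0.21, 0.02 and 0.09 on the log2 scale. The 3 pairs had the same sign for 48.4% of all genes tested. The M90I share of Rit1 mRNA was not measured, since the gene-level value does not tell the alleles apart.

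Of the 9 GTPases, 0 passed an adjusted p of 0.05 in the limma test without pairing, where 0.00725% of the 13794 genes tested did. The count was also 0 with voom on the recovered reads, and 1 member, Rras, had an unadjusted p under 0.05, as did 10.2% of all genes. Fitting the replicate number as a block, 1 of 9 passed, again Rras and in the lower direction, against 6.15% of all genes (3.51% lower and 2.64% higher). The split over all genes depended on scaling: 364 blocked calls were higher and 484 lower as deposited, and 538 were higher and 337 lower after rescaling to TPM. Rras was also the 1 member whose groups did not overlap, against 15.4% of all genes, 8.02% as lower and 7.36% as higher in AdCre.

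**Figure D1:**
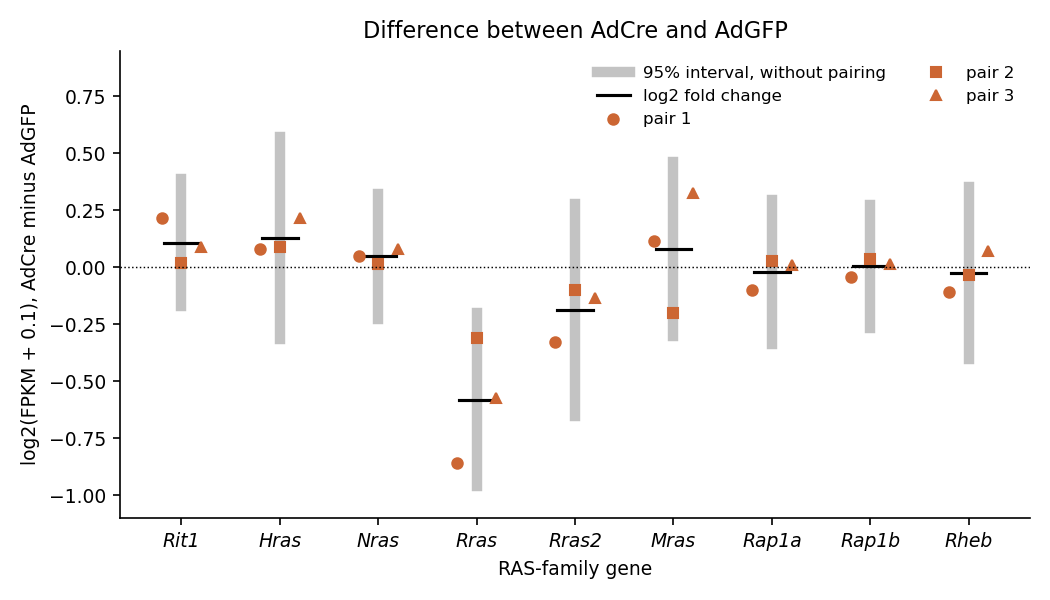
Difference in log2(FPKM + 0.1) between AdCre and AdGFP for each of the 9 GTPases. Black lines are the log2 fold changes, gray bars their 95% intervals in the limma fit without pairing (n = 3 per group), and symbols the 3 same-numbered pairs. The interval excludes 0 for Rras, from -0.96 to -0.20, and includes 0 for the other 8 genes.

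Rras encodes R-RAS, which is known for promoting integrin-mediated adhesion and for its part in blood vessel maturation. Its gene (ENSMUSG00000038387) lies on chromosome 7 from 45017961 to 45021647. It was at 138, 121 and 109 FPKM in AdGFP 1 to 3 and at 76.1, 97.3 and 73.4 FPKM in AdCre 1 to 3. Every AdCre sample was below every AdGFP sample. The means were 123 ± 14.5 FPKM in AdGFP and 82.3 ± 13.1 FPKM in AdCre (SD, n = 3 each), a ratio of 0.670. On the log2 scale the difference was -0.58 ± 0.16 (SE, limma p 0.00855, adjusted p 0.321), and the exact two-sided permutation test gave 0.1, the smallest value that 3 samples against 3 allow. The pairs differed by -0.86, -0.31 and -0.58 on the log2 scale, and with the block the adjusted p was 0.0476 (limma).

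The call for Rras was narrow. In the blocked fit the limma adjusted p was 0.0514 after rescaling to TPM, 0.0512 after median centring and 0.124 without an intensity trend, and it was 0.0638, 0.0697 and 0.173 without pair 1, 2 or 3. It stayed under the threshold without the authors' scaling factors (0.0472) and with voom on the recovered reads (0.0131). The direction was lower in AdCre under all 25 alternatives, with log2 fold changes between -0.72 and -0.44. As the groups did not overlap, leaving out samples could not turn this direction. Changing the filter or trend or adding the block left the estimate as it was. By p-value Rras was 365th of the genes tested without the block and 755th with it.

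Other cell markers moved beside Rras. The cardiomyocyte sum was lower in AdCre in each pair, by -0.63, -0.63 and -0.66 on the log2 scale, 10 of its 10 genes had negative fold changes, and 8 passed as lower with the block. Much of this sum came from Nppa, with 4223 of 8033 FPKM in AdGFP 1 and 3044 of 5189 FPKM in AdCre 1. The endothelial sum was higher in each pair, by 0.56, 0.45 and 0.50, with 8 of 8 genes positive and 4 passing as higher with the block. Of the fibroblast markers, 7 of 8 were lower and 3 passed as lower, and their sum was lower by -0.19, -0.21 and -0.48. The macrophage sum was higher in each pair, by 0.92, 0.46 and 0.36, with 7 of 7 genes tested positive and 1 passing as higher. The mesothelial sum was lower in each pair, by -0.48, -0.16 and -0.68, with 6 of 8 genes negative, 2 passing as lower and 1 as higher. The smooth muscle and pericyte sum differed by -0.20, 0.11 and 0.08. All these calls are from the blocked fit, beside 3.51% lower and 2.64% higher over all genes. Without pairing 0 marker genes passed in limma or with voom, and 6 cardiomyocyte, 3 endothelial and 2 mesothelial markers had an unadjusted p under 0.05. The blocked fit called 0 genes of any kind without an intensity trend, and 0 as lower without pair 3. Their part in the Rras difference was not tested, and in bulk RNA fewer cells of a type and less RNA per cell cannot be told apart.

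**Figure D2:**
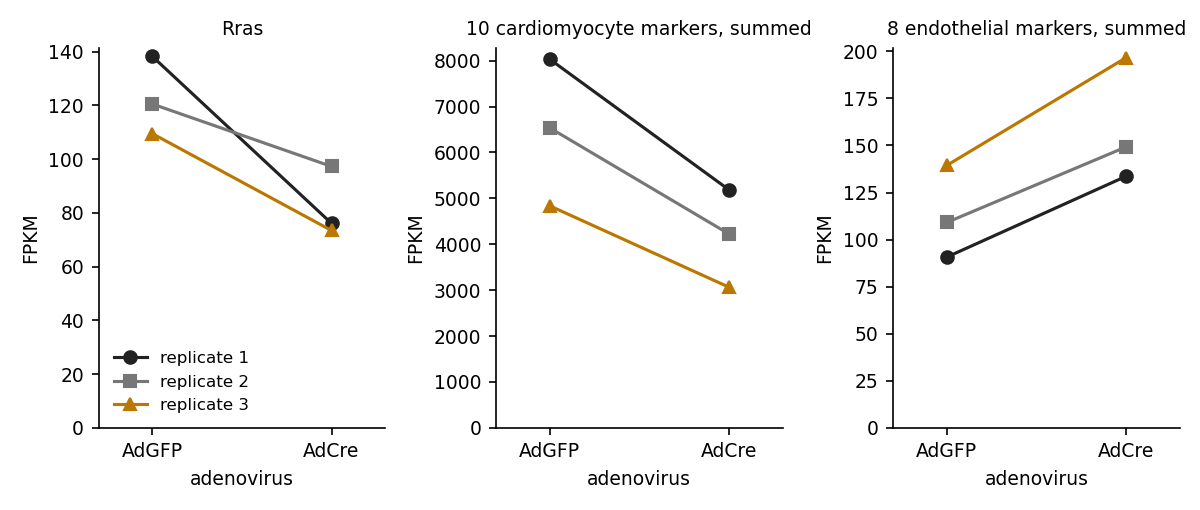
FPKM of Rras (left), of 10 cardiomyocyte markers summed (middle) and of 8 endothelial markers summed (right) in AdGFP and AdCre. Lines join samples with the same replicate number. Rras and the cardiomyocyte sum were lower in AdCre in all 3 pairs, and the endothelial sum was higher in all 3.

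Rras2 encodes TC21, the nearest relative of R-RAS, which couples to PI3-kinase. It was at 49.4, 35.7 and 31.97 FPKM in AdGFP and 39.3, 33.4 and 29.1 FPKM in AdCre. The groups overlapped, and AdGFP 1 and AdCre 1 were each the high sample of their group. On the log2 scale the difference was -0.19 ± 0.20 (SE, limma adjusted p 0.83, and 0.222 with the block), and it was lower in AdCre in all 3 pairs. Without AdGFP replicate 1 the difference was -0.0058. Mras encodes the GTPase that joins SHOC2 and the PP1 phosphatase in the complex that opens RAF kinases. It was at 3.22, 3.69 and 3.52 FPKM in AdGFP and 3.50, 3.19 and 4.44 FPKM in AdCre, with overlapping groups and pairs of both signs. Here the log2 difference was 0.08 ± 0.16 (SE, limma adjusted p 0.931).

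Of the classical RAS genes, Hras was at 19.0, 14.2 and 12.96 FPKM in AdGFP and 20.05, 15.1 and 15.1 FPKM in AdCre. Nras was at 22.5, 19.8 and 20.04 FPKM in AdGFP and 23.2, 20.02 and 21.2 FPKM in AdCre. Both overlapped between groups, and replicate 1 was the high sample in each group. Both were slightly higher in AdCre in all 3 pairs, with log2 fold changes of 0.13 (interval -0.32 to 0.57) for Hras and 0.05 (interval -0.23 to 0.32) for Nras, and limma adjusted p-values of 0.893 and 0.944. The fold changes of Hras and Nras were -0.0072 and -0.010 without AdCre replicate 1, and 0.288 and 0.105 without AdGFP replicate 1.

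RAP1 proteins act on integrins and cell junctions, and Rap1a and Rap1b encode near-identical forms. Rap1a was at 23.9, 23.7 and 27.8 FPKM in AdGFP and 22.3, 24.2 and 28.0 FPKM in AdCre. Rap1b was at 58.5, 55.2 and 62.2 FPKM in AdGFP and 56.9, 56.5 and 62.9 FPKM in AdCre. Replicate 3 was the high sample of both genes in both groups, unlike the classical RAS genes. Their log2 fold changes were -0.02 (interval -0.34 to 0.29) and 0.00 (interval -0.27 to 0.27), with limma adjusted p-values of 0.984 and 0.998. Rap1a is uncertain to some extent, since 8.27% of the 50-base words of its transcripts also occur in transcripts of other genes, mostly the gene model Gm9392. For Rit1, Rras, Rras2, Hras, Mras and Rap1b this share was 0, and for Nras and Rheb it was 0.661% and 0.235%.

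Rheb encodes the GTPase that activates the growth-controlling kinase complex mTORC1. It was at 19.4, 15.1 and 14.1 FPKM in AdGFP and 17.999, 14.7 and 14.8 FPKM in AdCre. The groups overlapped, with a log2 fold change of -0.02 (interval -0.40 to 0.35, limma adjusted p 0.987). Hras and Rheb had nearly the same FPKM, and their order turned between groups: the log2 ratio of Hras to Rheb was -0.03, -0.08 and -0.12 in AdGFP and 0.15, 0.04 and 0.02 in AdCre. This ratio was picked after its values were seen and was given no test.

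**Figure D3:**
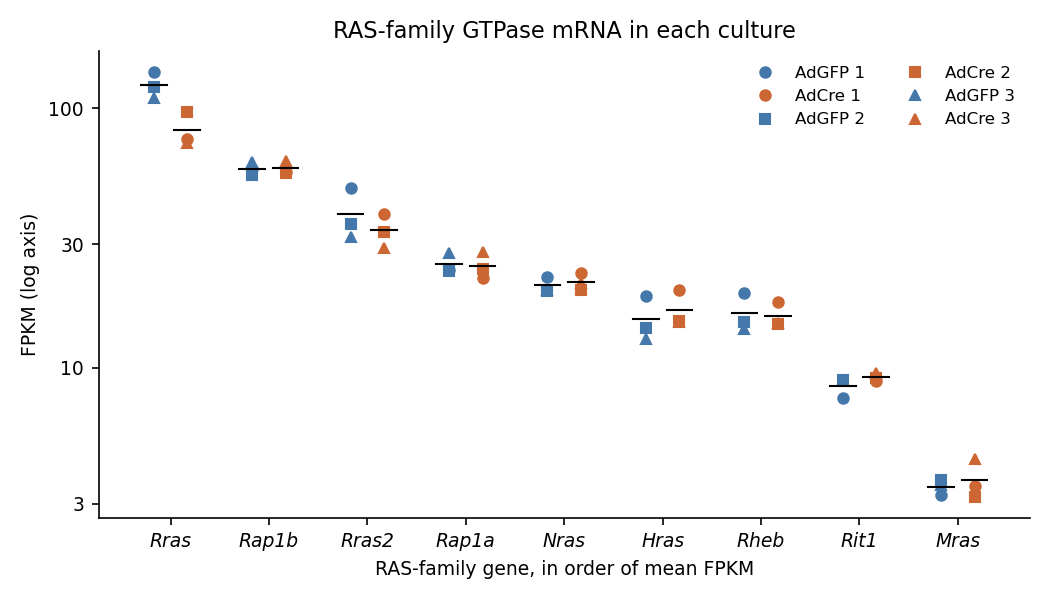
FPKM (log axis) of the 9 GTPases in each sample, ordered by their mean over the 6 samples. Blue symbols are AdGFP, orange AdCre, shapes mark the replicate number, and black lines the group means (n = 3). Rras is highest and Mras lowest in every sample, and of the 9 genes the groups stand apart for Rras alone.

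By mean FPKM over the 6 samples, the order was Rras (102.5), Rap1b (58.7), Rras2 (36.5), Rap1a (24.97), Nras (21.1), Hras (16.08), Rheb (16.03), Rit1 (8.87) and Mras (3.60). Ratios within samples were tested for the 36 pairs of genes by exact two-sided sign flips over 6 samples, adjusted over the 36 pairs. For 34 pairs all 6 samples had the same order (exact p 0.03125, the smallest possible, adjusted 0.0331). This test counts the 6 samples as independent. It also cannot tell a difference in level from a bias that is constant in all samples, such as how readily a gene's reads map. When the 2 samples of a replicate number were flipped together, 3 sets could not give an exact p below 0.25, and 0 of 36 pairs passed. The neighbours Hras and Rheb did not differ beyond their spread (3 of 6 samples each way, exact p 0.9375), nor did Nras and Rap1a (Rap1a higher in 5 of 6 samples, exact p 0.0625, adjusted 0.0643). The log2 ratio of Rit1 to Nras, in FPKM, averaged -1.24, and that of Rit1 to Mras 1.29. Rras made up a mean of 39.5% of the summed FPKM of the 9 genes in AdGFP and 30.8% in AdCre, while the sum of the other 8 genes was 176 to 204 FPKM in AdGFP and 176 to 192 FPKM in AdCre.

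This order depended on the length by which reads were divided. The deposited values use all exons of a gene, which for Rheb come to 7721 bases, against 1784 bases in its principal transcript, and for Rit1 to 3229 against 1204 bases. With the longest transcript of each gene, 32 of 36 pairs differed and 2 turned, Rheb was at rank 4 with 30.6 FPKM, and Rit1 stayed at rank 8 with 10.7 FPKM. Principal transcripts, a length chosen after seeing the data, moved the order further. With these, Rheb moved from rank 7 to rank 2, at 69.4 FPKM, and Rit1 from rank 8 to rank 7, at 23.8 FPKM. Then 30 of 36 pairs differed and 5 turned, and Rit1 no longer differed from Hras or Nras. Rras stayed the highest and Mras the lowest under all 3 lengths. All reads of a gene were kept under each length, including any from exons outside the chosen transcript. The rescaled values can therefore overstate the level of that transcript. Which transcripts were used in these cells was not measured.

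**Figure D4:**
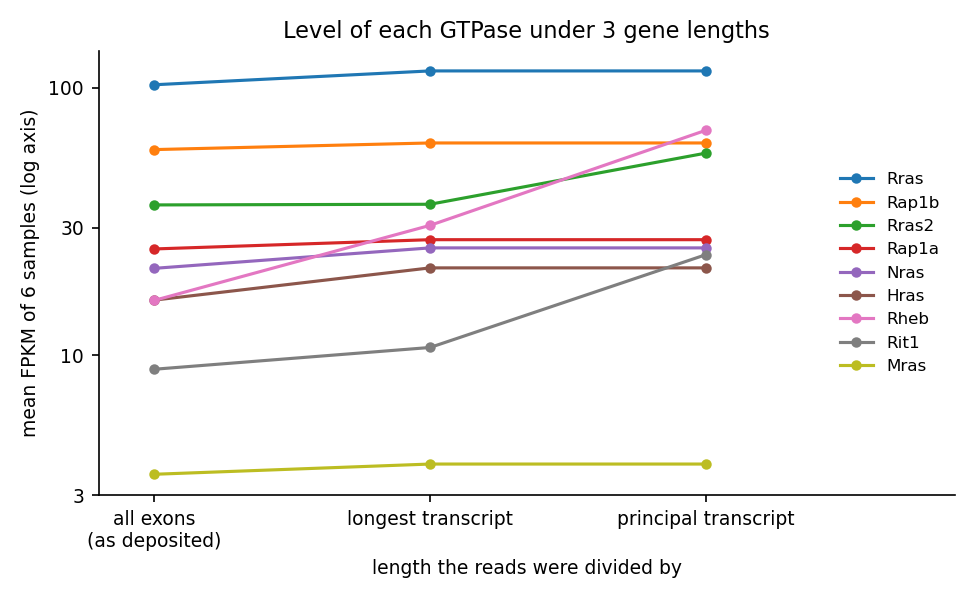
Mean FPKM over 6 samples (log axis) of each GTPase when its reads are divided by the length of all exons, of the longest transcript or of the longest principal transcript. Rheb moves from 16.03 to 69.4 FPKM and Rit1 from 8.87 to 23.8 FPKM, while Rras stays highest and Mras lowest.

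The genes whose values followed Rit1 most closely over the 6 samples were Crabp2, a retinoic acid carrier (Pearson r 0.996), Chd3, a chromatin remodeller (0.995), and Tal1, a blood and endothelial transcription factor (0.993). All 3 were lowest in AdGFP 1 and highest in AdCre 3, as Rit1 was: Crabp2 was at 0.306 and 4.23 FPKM in these samples, Chd3 at 15.4 and 18.8 FPKM, and Tal1 at 0.813 and 1.48 FPKM. With 6 samples such values are a description, and 93 of the 12429 protein-coding genes tested had an r above 0.95.

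Genes that load, unload, process, degrade or are bound by these GTPases were examined in 6 lists, of which 97 genes were tested. None of the 97 passed in limma without pairing or with voom on the recovered reads, and 13 reached an unadjusted p of 0.05, where 10.2% of all genes did. The blocked fit called 6 of the 97, namely 5 as higher and 1 as lower, beside 2.64% higher and 3.51% lower over all genes. None of these calls remained in the blocked fit without an intensity trend, without pair 2 or without pair 3. The medians of the lists lay between -0.03 and 0.13 on the log2 scale, beside a median of 0.00 over all genes tested.

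Most of the blocked calls were among other GTPases of the family, of which 21 of 25 were tested, 10 higher and 11 lower. Gem, a GTPase that inhibits voltage-gated calcium channels, was at 2.35, 1.63 and 1.04 FPKM in AdGFP and 4.07, 3.405 and 3.57 FPKM in AdCre. The groups did not overlap, with a log2 fold change of 1.16 (limma adjusted p 0.281, and 0.0349 with the block). Rerg, a growth-inhibitory family member, was at 5.96, 8.17 and 6.91 FPKM in AdGFP and 9.75, 11.1 and 10.7 FPKM in AdCre, again without overlap (log2 fold change 0.59, limma adjusted p 0.291, blocked 0.0290). Rasl10b was at 2.46, 3.78 and 2.45 FPKM in AdGFP and 1.11, 2.17 and 1.45 FPKM in AdCre, each AdCre sample being lower (log2 fold change -0.86, limma adjusted p 0.385, blocked 0.0323). Rasd2, also passing with the block (0.0485, limma), was at most 1.99 FPKM in any sample and its groups overlapped.

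Of the GTPase-activating proteins, 19 of 20 were tested, 13 higher and 6 lower, with a median of 0.13. Rasa3, which acts on RAS and RAP1, was at 11.6, 14.3 and 14.5 FPKM in AdGFP and 18.9, 18.8 and 24.0 FPKM in AdCre. Every AdCre sample exceeded every AdGFP sample, and the log2 fold change was 0.61 (limma adjusted p 0.291, and 0.0293 with the block). Rap1gap2, which switches RAP1 off, was at 4.33, 2.96 and 2.51 FPKM in AdGFP and 5.81, 4.30 and 4.58 FPKM in AdCre (log2 fold change 0.59, limma adjusted p 0.448, blocked 0.0499), and its groups overlapped by a single sample on each side. Rasa2 had a log2 fold change of 0.30 and did not pass with the block (limma adjusted p 0.339). The main RAS inactivator Nf1 and the RHEB inactivator Tsc2 had log2 fold changes of 0.12 and 0.13, with overlapping groups.

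Exchange factors gave no call in either fit (11 of 15 tested, 6 higher and 5 lower). Rapgef4, which loads RAP1 in response to cyclic AMP, was at 0.927, 0.868 and 1.06 FPKM in AdGFP and 1.62, 1.42 and 1.31 FPKM in AdCre, with a log2 fold change of 0.56 (limma adjusted p 0.422, blocked 0.145). Sos2 and Rapgefl1 followed by p-value, at -0.18 and -0.53, and their groups overlapped. Of the 14 genes for prenylation and membrane delivery, 8 were higher and 6 lower, and none passed. The depalmitoylase gene Abhd17c was at 10.4, 12.98 and 14.7 FPKM in AdGFP and 8.62, 9.45 and 9.19 FPKM in AdCre (log2 fold change -0.46, limma adjusted p 0.371, blocked 0.0597). Zdhhc9, a RAS palmitoyltransferase, had a log2 fold change of -0.40 and Icmt, which methylates prenylated C termini, one of 0.22, and neither overlapped between groups.

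For turnover and scaffolds, 12 of 14 genes were tested, 5 higher and 7 lower, and none passed. Lztr1, the adaptor for RIT1 degradation, was at 12.5, 16.1 and 15.99 FPKM in AdGFP and 11.9, 14.4 and 15.9 FPKM in AdCre, with overlapping groups and a log2 fold change of -0.08. Its partner Cul3 was at -0.13 and the MRAS partner Shoc2 at -0.06, both overlapping. Ppp1cb, a PP1 catalytic subunit in the SHOC2 complex, was at 37.5, 36.5 and 34.9 FPKM in AdGFP and 27.8, 33.5 and 27.3 FPKM in AdCre, without overlap (log2 fold change -0.30, limma adjusted p 0.479, blocked 0.105). Its value is uncertain because 17.5% of its exon bases overlap the gene model Gm43312 on the same strand. Usp47 and the RAF scaffold Ksr1 followed by p-value, with log2 fold changes of -0.33 and 0.37.

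Effectors gave no call either (20 of 21 tested, 12 higher and 8 lower, median 0.08). Apbb1ip, the RAP1 effector that recruits talin to integrins, was at 1.78, 2.01 and 2.48 FPKM in AdGFP and 2.91, 2.83 and 2.88 FPKM in AdCre, without overlap (log2 fold change 0.45, limma adjusted p 0.426, blocked 0.121). Rgl1, a RalGDS-type effector, was lower in every AdCre sample with a log2 fold change of -0.31, and Tiam1, an exchange factor for RAC that RAS binds, had one of 0.48 with overlapping groups. The kinase gene Araf had a log2 fold change of -0.21 without overlap, and a limma adjusted p of 0.593.

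**Figure D5:**
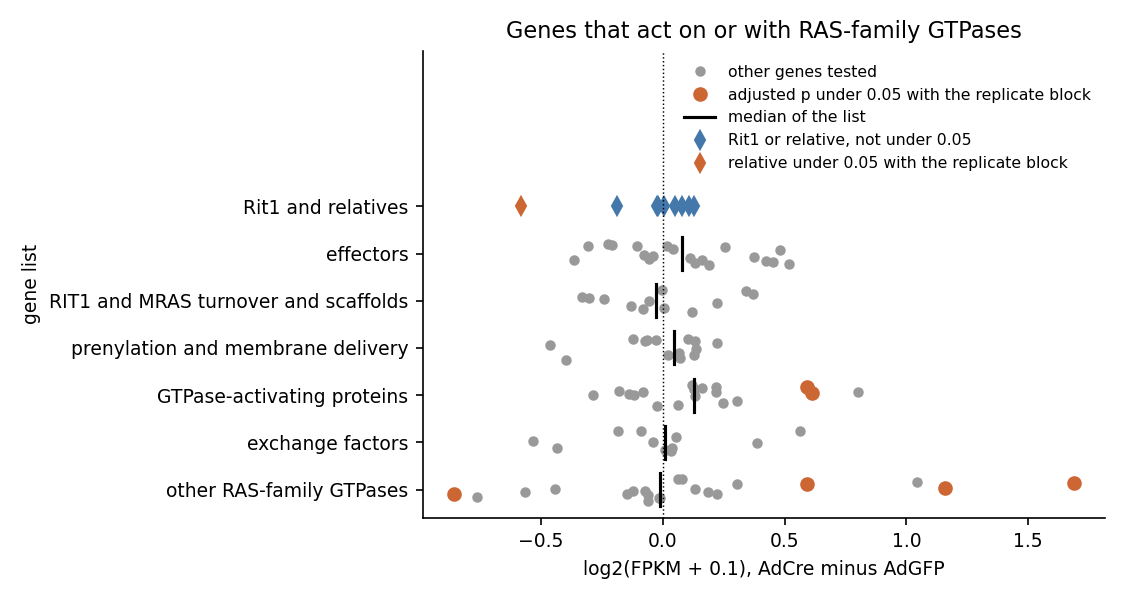
Log2 fold changes (AdCre minus AdGFP, log2(FPKM + 0.1)) of the genes tested in 6 lists and of Rit1 and its 8 relatives (top row). Circles are list genes and diamonds Rit1 and its relatives. Orange symbols passed an adjusted p of 0.05 with the replicate block, gray and blue ones did not, and black lines are list medians. The orange diamond is Rras, and the 6 orange circles are Gem, Rerg, Rasd2 and Rasl10b among other GTPases and Rasa3 and Rap1gap2 among GTPase-activating proteins.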

How the data were processed

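Libraries of 6 samples were made from poly(A) RNA, with random priming. The submitters' processing notes name fastp, STAR 2.5, HTSeq 0.6.1 and mm10. The annotation version and whether strand was used are not given in the sources used here. The deposited table holds FPKM made by the authors, 1 column per sample. Of 54532 gene IDs, 54495 are in GENCODE M21 (GRCm38, the same assembly as mm10), the source of symbols, lengths, coordinates and transcript sequences. FPKM times exon length gave whole reads within 0.1 for 98.4% to 98.5% of genes under 100 reads. Denominators differed from the read totals by relative factors of 0.931 to 1.03 (here called the authors' scaling factors), whose origin is not given in the sources used here.

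Values were tested as log2(FPKM + 0.1) for 13794 genes, those averaging 0.5 FPKM or more, in limma 3.58.1 (R 4.3.3; lmFit, eBayes with trend, Benjamini-Hochberg over all genes), so fold changes of low genes are understated. Levels of gene pairs were compared by exact sign flips. The limma fit, with and without the block, was also run on simulated data, and the outcome is not reported here. Samples are labelled as biological replicates numbered 1 to 3 in both groups, and the labels do not say what a number marks. Across genes, the deviations of samples 1, 2 and 3 from their group means correlated between the groups at 0.568, 0.268 and 0.506. Each exceeds 0.1, so same-numbered samples were treated as pairs, from the values alone, and blocked values are given where they change a call and for some other genes. The main fit is without the block.

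The 9 genes and all gene lists were chosen with earlier results of these data known. The named genes are these 9, the called genes of each pathway list (or the 3 with the smallest p), and the 3 protein-coding genes most correlated with Rit1. Rasd2, Nf1, Tsc2, Lztr1, Cul3, Shoc2 and Araf, were described after their values were seen. Coding windows were placed by aligning translated principal transcripts to that of Rit1. Alternatives were other pseudocounts (1 and 0.01), other filters (none, or 1 FPKM on average), TPM, median centring, quantile normalization, no trend, voom on recovered reads, the replicate block, other transcript lengths and leaving out each sample. Values without the authors' factors, principal-transcript lengths and combinations of the block with other choices were added after seeing the data.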

Additional observations from a re-analysis of the deposited data

How the results depend on the processing

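The count of genes passing without pairing, 1, became 3 with a pseudocount of 1, 4 without an intensity trend, and 0 without a filter on low values (2168 at an unadjusted p under 0.05) or with voom (1423). It lay between 0 and 2 when a sample was left out. With the replicate block it was 848, and with the block it was 875 after rescaling to TPM, 778 after median centring, 874 without the authors' scaling factors, 1547 with voom, 0 without a trend (3122 at an unadjusted p under 0.05), 772 without pair 1, 149 without pair 2 and, leaving out pair 3, 1 (2499 by unadjusted p). Among the blocked calls, 479 were higher and 395 lower without the authors' factors.

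Of the 9 GTPases, 0 passed under any unblocked alternative, and 1, Rras, passed with the block, with the block and no authors' factors, and with the block and voom, at log2 fold changes of -0.58, -0.52 and -0.58. The block changed no other call among the 9. Without pairing, the limma adjusted p of Rras lay between 0.209 and 0.807 over 16 alternatives. Of the pathway genes, 6 passed with the block, and with the block 6 passed after rescaling to TPM, 5 after median centring, 6 without the authors' factors, 10 with voom, 8 without pair 1, and 0 without a trend, without pair 2 or without pair 3 (24, 17 and 18 by unadjusted p).

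Rit1 was higher, and Rras and Rras2 lower, in AdCre under all 25 alternatives. For Rras this was fixed in advance when samples were left out, as its groups did not overlap. Hras, Nras, Mras, Rap1a, Rap1b and Rheb each changed sign under some alternative, and Rheb reached 0.112 against -0.02 in the main fit. When each sample was left out in turn, the log2 fold change ran from 0.030 (without AdGFP replicate 1) to 0.146 for Rit1, from -0.318 to -0.0058 (without AdGFP replicate 1) for Rras2, from -0.0072 (without AdCre replicate 1) to 0.288 for Hras, from -0.010 (without AdCre replicate 1) to 0.105 for Nras, from -0.053 (without AdCre replicate 3) to 0.179 for Mras, from -0.112 to 0.054 (without AdGFP replicate 3) for Rap1a, from -0.046 (without AdCre replicate 3) to 0.046 for Rap1b, and from -0.119 to 0.112 (without AdGFP replicate 1) for Rheb. Rescaling to TPM gave 0.068 for Rap1a and 0.065 for Rheb, and omitting the authors' factors gave 0.040 and 0.037, each the same with the block. With the block and without pair 1 both were at 0.018, without pair 2 Rap1b was at -0.013, and without pair 3 Mras was at -0.043 and Rap1b at -0.0031.

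Of the 36 pairs of levels, 34 differed, and 0 when any sample was left out, because 5 samples cannot give an exact p below 0.0625. With the replicate block, flipping whole replicate sets, 0 pairs differed, because 3 sets cannot give less than 0.25. Rescaling to TPM moved the median log2 fold change of all genes to 0.09. The 9 genes had at least 409 reads in each sample, and the 3 samples per group limit the precision.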
